A study of Mus musculus with 12 samples.

Results

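The 44 genes described here encode the machinery that licenses replication origins and copies DNA at the replication fork. They were chosen by symbol, and all 44 were among the 15672 genes of the deposited table and passed the filter on low values that left 14147 genes tested. The table holds bulk RNA-seq of 12 end-point mouse tumours labelled MB, taken here as medulloblastoma, a tumour of the cerebellum. In the SG group (3 male and 3 female libraries, genotype fSMO-M2;hGFAPcre) a floxed SMO-M2 allele, an activated Smoothened that switches on Hedgehog signalling, is combined with Cre driven by the human GFAP promoter, which acts in neural progenitors and glia. The YSGr group (3 male and 3 female libraries, genotype fYap1;fSMO-M2;hGFAPcre, called rescued by the submitters) carries a floxed Yap1 gene in addition. Yap1 encodes a transcriptional coactivator of the Hippo pathway. Ages were not given, and since the labels do not say whether each library is its own animal, p-values measure only the spread between these libraries, which may be technical.

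Replication is prepared in G1 phase, when the origin recognition complex (ORC), Cdc6 and Cdt1 load the hexameric Mcm2 to Mcm7 helicase onto DNA. At entry into S phase, the kinase Cdc7 with its partner Dbf4, and the factors Ticrr, Mcm10, Cdc45 and the GINS complex, turn the loaded helicase into a moving fork, where DNA polymerases, the sliding clamp PCNA, the RPA complex and the enzymes Fen1 and Lig1 copy and join the strands. Many of these genes are transcribed at the G1/S transition by E2F factors, and Hedgehog-driven tumours of granule neuron progenitors, the cells that build the cerebellar granule layer, are known for intense S-phase activity.

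Stretches of 80 bases before annotated start sites are shown because the genes are textbook E2F targets and mostly shared a direction in the data. Capitals mark every match to the searched E2F letters.
Mcm5: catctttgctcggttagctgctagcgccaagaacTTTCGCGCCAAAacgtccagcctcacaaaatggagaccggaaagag
Mcm6: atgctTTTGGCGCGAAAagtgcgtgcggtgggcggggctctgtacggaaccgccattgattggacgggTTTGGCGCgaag
Mcm7: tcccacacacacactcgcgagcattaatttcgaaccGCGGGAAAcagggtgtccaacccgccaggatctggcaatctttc
Cdc6: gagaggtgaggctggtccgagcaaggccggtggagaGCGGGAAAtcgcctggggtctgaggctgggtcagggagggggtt
Orc1: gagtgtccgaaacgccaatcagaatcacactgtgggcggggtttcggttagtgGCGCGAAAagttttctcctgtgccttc
Gins3: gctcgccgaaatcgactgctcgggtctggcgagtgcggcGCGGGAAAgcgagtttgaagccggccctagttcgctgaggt
Rfc3: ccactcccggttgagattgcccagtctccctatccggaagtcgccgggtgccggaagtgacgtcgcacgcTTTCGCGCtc
Pola1: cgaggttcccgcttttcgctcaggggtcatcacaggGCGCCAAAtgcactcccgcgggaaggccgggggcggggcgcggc
Mcm2: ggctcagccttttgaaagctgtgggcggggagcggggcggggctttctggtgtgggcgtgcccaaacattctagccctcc
Pcna: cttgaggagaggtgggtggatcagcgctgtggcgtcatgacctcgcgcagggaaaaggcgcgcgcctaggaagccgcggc

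The sequences are from RefSeq, assembly GRCm38.p6, written 5′ to 3′ on the strand of the gene. Plus-strand windows are Mcm5 at chr8:75109322-75109401, Cdc6 at chr11:98907977-98908056, Orc1 at chr4:108579374-108579453 and Gins3 at chr8:95633479-95633558. Minus-strand windows are Mcm6 at chr1:128359741-128359820, Mcm7 at chr5:138172005-138172084, Rfc3 at chr5:151651209-151651288, Pola1 at chrX:93632250-93632329, Mcm2 at chr6:88898781-88898860 and Pcna at chr2:132253181-132253260. Mcm2 and Pcna are printed as members with no match to these letters in the window from 250 bases before to 50 bases after the start.

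Promoter entries were found for 37 of the 44 genes. An E2F match, meaning any of TTTCCCGC, TTTCGCGC, TTTGCCGC or TTTGGCGC on either strand, occurred for 14 of the 37 (37.8%), against 704 of 27025 genes in the table (2.60%). The NF-Y letters CCAAT occurred for 24 of 37 members (64.9%), against 41.1% of all genes, and the CHR letters TTTGAA for 7 of 37 (18.9%), against 20.2%. Each match counts letters in a window and is not a measured binding site. The 14 genes with an E2F match and the 23 without had median log2 fold changes of -0.33 and -0.27 (YSGr against SG, averaged over the sexes) and of -0.63 and -0.45 in males, values given as a description.

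The libraries held 8854630 to 9478680 estimated reads over the genes of the table, at which 1 read was worth 0.100 to 0.111 CPM (read counts scaled to library size). The scaling was not by these sums alone. SG male 2, with the most reads, had 0.111 CPM per read, and YSGr male 7, with 9221580 reads, had 0.100. The deleted gene was checked first: Yap1 stood at 4.29 to 4.80 log2 CPM in SG, while YSGr males held 0.73 to 1.82 and YSGr females -0.02 to 0.55. Markers of granule neuron progenitors were abundant in all libraries (summed level over 12 genes 4212 to 7156 CPM). The library SG male 2 stood apart, being lowest of the 12 for 22.9% of all genes tested, and so did YSGr male 8, lowest for 22.3% and with 8951 CPM of oligodendrocyte lineage markers against 1109 to 2700 in the other 11 libraries.

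The replication genes took between 0.246% of the estimated reads (YSGr male 8) and 0.480% (SG female 6). Scaled per kilobase of exon, the mean SG levels spanned 5.96 log2 units. The highest were Pcna, the sliding clamp, at 7.56 log2 CPM per kb, the helicase subunit Mcm7 at 7.08 and the GINS subunit Gins2 at 6.66. The lowest were Orc1, the ATPase subunit of ORC, at 1.61, Gins3 at 2.32 and the firing factor Ticrr at 2.81. Even Orc1 had 49 to 114 reads in each library. Exons of 17 of the 44 genes overlap exons of another gene in the GENCODE M21 basic annotation, and since it is not given whether counting used strand, reads of such pairs cannot be told apart. This bears most on Fen1, which shares 84.1% of its exon length with Gm10143 and Tmem258, and Gins2, which shares 70.7% with Gse1, all on the opposite strand.

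Averaged over the sexes, 42 of the 44 replication genes had a lower mean in YSGr than in SG tumours. The median log2 fold change was -0.30, while the median over all genes tested was -0.00. By limma with Benjamini-Hochberg adjustment over all genes, 5 members fell (Mcm2, Gins2, Pole, Fen1 and Lig1) and none rose. Of all genes tested, 5.27% were called lower and 6.16% higher, beside 11.4% of the members called lower. At an unadjusted p under 0.05, 21 members (47.7%) were lower, against 13.8% of all genes, and 0 higher. In bulk tissue, fewer cycling cells and less RNA per cell cannot be told apart. The count of 5 moved to 1 when SG female 6 was left out, to 2 for SG female 5, to 3 for YSGr female 10 and to 10 for YSGr female 12. In the same order these were 2.27%, 4.55%, 6.82% and 22.7% of the members, against 2.89%, 2.93%, 3.31% and 6.30% of all genes. Only Orc4 and Orc3, both ORC subunits, had an average above 0, at 0.09 and 0.01.

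**Figure D1:**
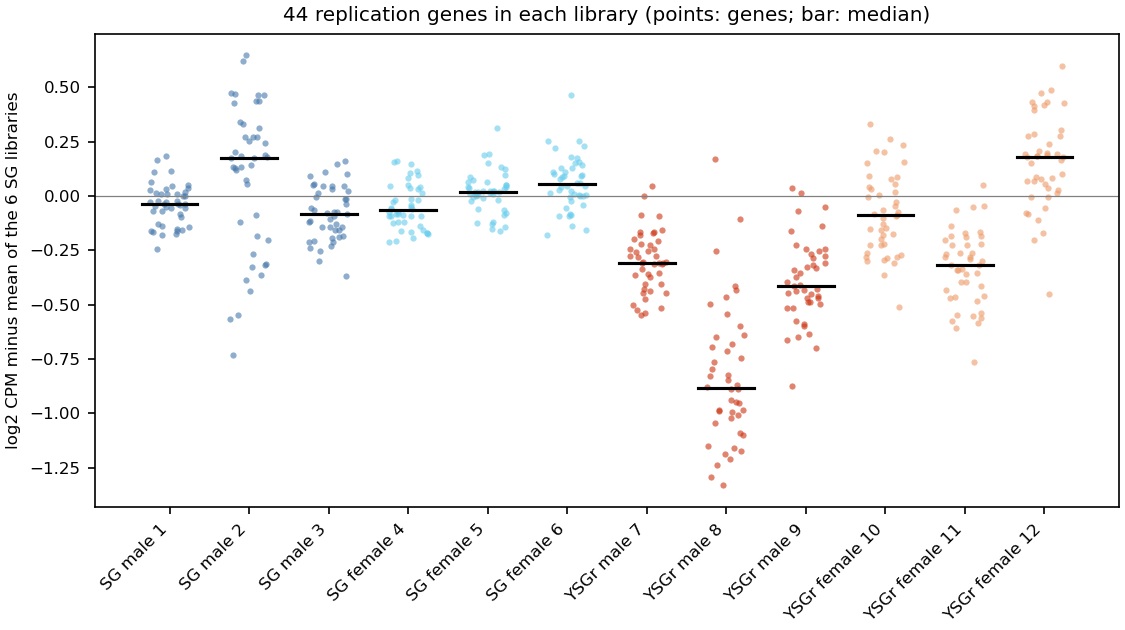
Each point is 1 of the 44 replication genes in 1 library, as its log2 CPM minus its mean over the 6 SG libraries (y axis), with libraries on the x axis and a bar at the median. The median is -0.31, -0.88 and -0.41 for YSGr males 7, 8 and 9, and -0.09, -0.32 and 0.18 for YSGr females 10, 11 and 12.

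The 6 Mcm genes, whose products form the ring-shaped helicase, had a median log2 fold change of -0.36 averaged over the sexes, -0.69 in males and -0.07 in females. Mcm2 (chromosome 6, 88883474 to 88898780, mm10), whose window above holds no E2F letters, measured 7.91, 8.09 and 7.80 log2 CPM in the SG males and 7.91, 7.98 and 8.06 in the SG females. In YSGr it measured 7.44, 6.75 and 7.38 in males and 7.73, 7.68 and 7.79 in females. Every YSGr library was thus below every SG library, with YSGr male 8 far the lowest. Mcm2 fell by 0.50 averaged over the sexes (SE 0.12, adjusted p = 0.018), and its level thus fell by 29.1%. In males it fell by 0.74 (adjusted p = 0.025), and in females its fold change was -0.25 (adjusted p = 0.57). The averaged call was lost when SG female 6 was left out (adjusted p = 0.056), and the male call when SG male 2 (-0.66, adjusted p = 0.069) or YSGr male 8 (-0.52, adjusted p = 0.063) was.

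Mcm5 and Mcm7, both with E2F letters in the windows above, passed the test in the male contrast, and the difference between the sexes passed for neither. Mcm5 measured 7.61, 7.86 and 7.59 in the SG males against 7.14, 6.58 and 7.27 in the YSGr males, without overlap. Its male level fell by 0.69 (SE 0.18, adjusted p = 0.040). Its female libraries measured 7.59, 7.67 and 7.74 in SG and 7.39, 7.48 and 7.87 in YSGr, with YSGr female 12 above all 3 SG values. Mcm7 measured 8.48, 9.07 and 8.45 in the SG males against 8.20, 7.35 and 8.04 in the YSGr males and fell by 0.80 (SE 0.22, adjusted p = 0.046). Here SG male 2 was the highest and YSGr male 8 the lowest of all 12 libraries, and the male fold change was -0.34 with both left out (adjusted p = 0.22). Female Mcm7 values of 8.52, 8.64 and 8.69 in SG and 8.55, 8.42 and 8.83 in YSGr overlapped, with a fold change of -0.02. Both male calls were lost for any 1 of the SG libraries left out, with adjusted p for Mcm5 up to 0.11 and for Mcm7 up to 0.13, as well as without YSGr male 8 (-0.49 for Mcm5 and -0.54 for Mcm7, adjusted p = 0.14 and 0.16), and also without YSGr male 7 for Mcm5 and without YSGr male 9 or YSGr female 10 for Mcm7.

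Mcm6 was the member with the most unequal values between the sexes. It measured 7.82, 7.94 and 7.73 in the SG males and 7.50, 6.57 and 7.35 in the YSGr males, all lower, and its male fold change was -0.69 (adjusted p = 0.055). In females the order was turned around: 7.67, 7.83 and 7.85 in SG lay entirely below 7.96, 7.86 and 8.24 in YSGr, with a fold change of 0.24 (adjusted p = 0.70). Mcm3 and Mcm4 had averaged fold changes of -0.28 and -0.33 and passed no test.

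ORC marks the origins, and its 6 genes had the averaged median nearest 0 of the 9 roles, at -0.12, with -0.30 in males and 0.05 in females. None was called. Orc4 had the highest fold change of the 44 genes, 0.09 (95% interval -0.19 to 0.37), and its libraries overlapped completely: 5.17 to 5.48 log2 CPM in the 6 SG libraries and 5.01 to 5.74 in the 6 YSGr libraries. Orc3 and Orc6 followed at 0.01 and -0.04, and Orc2, with the smallest p of the complex, was at -0.27 (adjusted p = 0.16). Cdc6 and Cdt1, which bring the helicase to ORC, had a median of -0.33. Cdt1 measured 6.48, 6.67 and 6.43 in SG males and 6.11, 5.51 and 6.09 in YSGr males, with no overlap, and fell by 0.62 in males (SE 0.16, adjusted p = 0.038). Its female values of 6.41, 6.66 and 6.57 in SG and 6.44, 6.49 and 6.56 in YSGr overlapped, with a fold change of -0.05. The male call of Cdt1 was lost for any 1 of the 6 SG libraries, YSGr male 8 (-0.43, adjusted p = 0.12) or YSGr female 10 left out.

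Among the 9 genes that start the fork (Cdc7, Dbf4, Ticrr, Mcm10, Cdc45 and the 4 GINS subunits), the median was -0.29 averaged over the sexes and Gins2 alone was called. Gins2 (chromosome 8, 120578633 to 120589304, mm10) encodes a subunit of the GINS complex, which holds the helicase and polymerase together. It measured 8.47, 8.79 and 8.49 log2 CPM in SG males, 8.61, 8.66 and 8.70 in SG females. YSGr males measured 8.10, 7.80 and 7.74, and YSGr females 8.11, 8.15 and 8.17. All 6 YSGr libraries were below all 6 SG libraries, and YSGr females 10 and 12, near SG for most members, were low here too. Gins2 fell by 0.61 averaged over the sexes (SE 0.09, adjusted p = 0.0015), equal to a level that fell by 34.4%, and by 0.70 in males (adjusted p = 0.012). In females its fold change of -0.51 just missed the threshold (adjusted p = 0.058), the smallest female value of any member.

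Gins2 was the only member called in the average whichever library was left out. Gse1, the opposite-strand gene that shares most of its exon length, fell by 0.55 averaged over the sexes (adjusted p = 0.0042), and also by 0.59 in females and 0.51 in males. Like Gins2, Gse1 was lower in every YSGr library (8.69 to 9.03 log2 CPM) than in every SG library (9.07 to 9.57). YSGr females 10 and 12 were low for Gse1 too, at 8.90 and 8.95. The other GINS subunits, which work as 1 complex with Gins2, had averaged fold changes of -0.36 (Gins1), -0.38 (Gins3) and -0.24 (Gins4) and were not called. Whether Gins2 reads include Gse1 reads was not tested.

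The 8 genes of the polymerases and primase had a median of -0.32. Pole, the catalytic subunit of the leading-strand polymerase epsilon (chromosome 5, 110286306 to 110337474, mm10), measured 6.55, 6.19 and 6.54 in SG males, 6.64, 6.62 and 6.78 in SG females. YSGr males measured 6.15, 5.38 and 5.92, and YSGr females 6.33, 6.01 and 6.35. The groups were separate within each sex, and across the sexes only SG male 2 lay within the YSGr range. Pole fell by 0.53 averaged over the sexes (SE 0.13, adjusted p = 0.022), while its values of -0.61 in males (adjusted p = 0.062) and -0.45 in females (adjusted p = 0.27) did not pass. The averaged call was lost without SG male 3, SG female 5 or SG female 6 (adjusted p = 0.050, 0.051 and 0.067). Pole2, its accessory subunit, was at -0.66 in males (adjusted p = 0.087) and 0.20 in females (adjusted p = 0.80). Pola1, the catalytic subunit of the priming polymerase alpha, was nearly level at -0.07, while its partner Pola2 was at -0.40 (neither called).

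Okazaki fragments of the lagging strand are trimmed by the nuclease Fen1 and sealed by the ligase Lig1, and both genes fell in the average and in males. Lig1 (chromosome 7, 13277283 to 13311433, mm10) measured 7.13, 7.35 and 6.91 in SG males against 6.69, 6.02 and 6.51 in YSGr males, without overlap. In females it measured 7.08, 7.22 and 7.31 in SG and 6.90, 6.85 and 7.09 in YSGr, where YSGr female 12 just entered the SG range. Lig1 fell by 0.49 averaged over the sexes (SE 0.12, adjusted p = 0.023) and by 0.73 in males (adjusted p = 0.031), with -0.25 in females (adjusted p = 0.59). The averaged call was lost without SG female 5, SG female 6 or YSGr female 10 (adjusted p up to 0.069), and the male call without SG male 1, SG male 2, SG female 5, SG female 6 or YSGr male 8 (adjusted p up to 0.10).

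Fen1 (chromosome 19, 10199132 to 10204169, mm10) measured 6.10, 6.59 and 6.04 in SG males, 6.15, 6.28 and 6.31 in SG females. YSGr males measured 5.74, 5.36 and 5.59, and YSGr females 5.97, 5.90 and 6.28. Only YSGr female 12 reached the SG values. Fen1 fell by 0.44 averaged over the sexes (SE 0.12, adjusted p = 0.034) and by 0.68 in males (adjusted p = 0.036). The averaged call was lost when any 1 of the SG females, YSGr males 8 and 9 or YSGr females 10 and 11 was left out (adjusted p up to 0.092), and the male call likewise for SG male 2, the SG females and YSGr males 8 and 9 (adjusted p up to 0.13). Tmem258, on the opposite strand, had an averaged fold change of -0.04 (adjusted p = 0.91). Gm10143, which shares more of the Fen1 exons than Tmem258 does, was not among the genes tested. Whether Fen1 reads include reads of either gene was not tested.

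**Figure D2:**
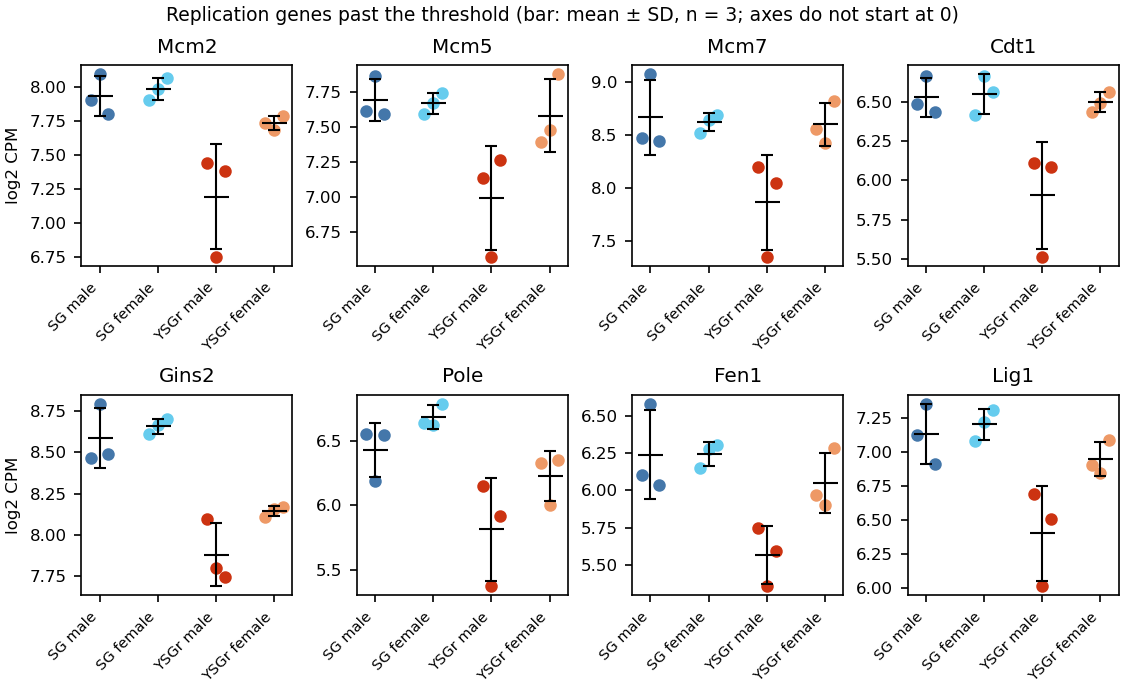
Log2 CPM (y axis, not starting at 0) of the 8 replication genes past the threshold in any contrast, by group on the x axis; points are libraries and bars the mean ± SD (n = 3). The YSGr male mean is the lowest in every panel, and the YSGr females lie entirely below the SG females in Mcm2, Gins2 and Pole.

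The clamp Pcna and its loader, the RFC complex, had a median of -0.32 averaged over the sexes and no called member. Pcna measured 8.07 to 8.28 in the 6 SG libraries, 7.92, 7.32 and 7.82 in YSGr males, and 8.22, 7.90 and 8.58 in their female counterparts. The males were all below SG, whereas YSGr female 12 was the highest of the 12 libraries. Rfc1, the large loader subunit, had the smallest p of the complex, with a fold change of -0.34 (adjusted p = 0.058). The RPA genes, which coat single-stranded DNA, had a median of -0.27, with Rpa1 at -0.26 (adjusted p = 0.15). Rrm1 and Rrm2, which form ribonucleotide reductase and supply deoxynucleotides, had a median of -0.28, with Rrm2 at -0.28 (adjusted p = 0.18).

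In males, 43 of the 44 replication genes had a fold change below 0, with a median of -0.54, against -0.01 over all genes. Called lower were 7 members (Mcm2, Mcm5, Mcm7, Cdt1, Gins2, Fen1 and Lig1), none was higher, and 33 (75%) were lower at an unadjusted p under 0.05, against 15.1% of all genes. The members' share called lower was 15.9%; of all genes tested in males, 3.42% were called lower and 4.43% higher. For 31 members (70.5%) all 3 YSGr male values were below all 3 SG male values, against 18.0% of all genes. YSGr males 7 and 9 alone gave 31 members too, a count that leaving out a library cannot lower, against 21.6% of all genes. The count of 7 moved with single libraries. It came to 1 (Gins2, 2.27%) when SG male 2 or YSGr male 8 was left out, where 1.11% and 0.848% of all genes were called lower. It was 2 (4.55%) for SG female 5 or 6, against 1.39% and 1.40% of all genes. For SG male 1 or SG female 4 it was 3 (6.82%, against 2.82% and 1.51%). It was 4 (9.09%, against 1.70%) for SG male 3 and 12 (27.3%, against 4.73%) for YSGr female 11. A fit on the 6 male libraries alone called 0 members, where 0.530% of all genes were called lower. The median was -0.37 without YSGr male 8 and -0.26 without it and SG male 2.

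In females, 33 of the 44 genes were below 0, with a median of -0.10, against 0.01 over all genes. None was called in either direction by limma, while 1.87% of all genes were called lower and 1.15% higher. At an unadjusted p under 0.05, 2 members (4.55%) were lower (Gins2 and Pole), against 7.68% of all genes. All 3 YSGr females lay below all 3 SG females for 6 members (Mcm2, Ticrr, Gins2, Pold1, Pole and Rfc1), a share of 13.6% against 13.9% over all genes, and above them for Mcm6. Without YSGr female 11 the female median was 0.00, and without YSGr female 12 it was -0.23. Across both sexes, all 6 YSGr libraries lay below all 6 SG libraries for 2 of the 44 genes (Mcm2 and Gins2), where 2.96% of all genes did.

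**Figure D3:**
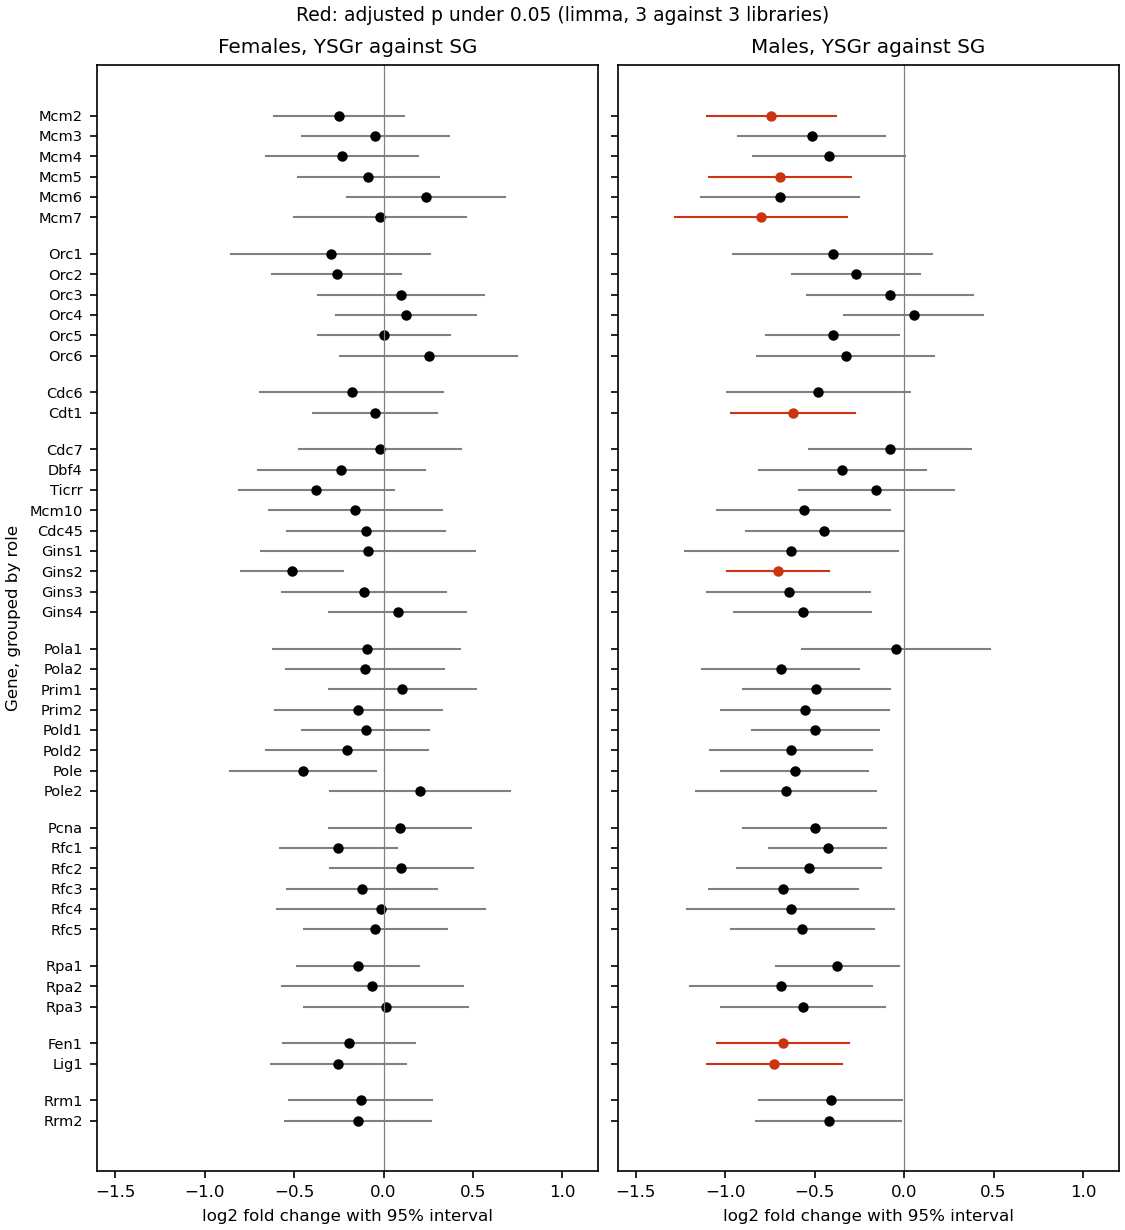
Log2 fold change of YSGr against SG (x axis) with its 95% interval for each replication gene (y axis, grouped by role), in females on the left and males on the right; red marks an adjusted p under 0.05. Male values lie left of 0 for 43 of 44 genes with a median of -0.54, and female values spread around a median of -0.10.

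The difference between the sexes was tested directly, as the female minus the male fold change. It was above 0 for 42 of the 44 genes, with a median of 0.45, but none passed the adjustment (smallest adjusted p = 0.43), and 9 (20.5%) were above 0 at an unadjusted p under 0.05, against 5.61% of all genes. Of all genes, 0.00707% passed, a single gene. The smallest p-values were those of Mcm6 (difference 0.93, 95% interval 0.31 to 1.56), Pole2 (0.86, 0.15 to 1.57), Gins4 (0.65, 0.11 to 1.19), Cdt1 (0.57, 0.08 to 1.06) and Mcm7 (0.78, 0.10 to 1.46). With library weights in limma, which count libraries far from their group less, Mcm6 and Pole2 were called, 4.55% of the members, where 4.77% of all genes were called. The median difference was 0.25 without YSGr male 8, 0.17 without it and SG male 2, and 0.22 with library weights.

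The sexes were also compared within each genotype. In SG the female against male fold change had a median of -0.01, with 21 genes above and 23 below 0, and 0 members called (1 at an unadjusted p under 0.05), where 0.0353% of all genes were called. In YSGr the fold change was above 0 for all 44 genes, with a median of 0.43, but 0 were called (smallest adjusted p = 0.14), where 0.0778% of all genes were called. At an unadjusted p under 0.05, 22 members (50%) were higher in YSGr females, against 7.51% of all genes. The count called in YSGr was 6 (13.6%) without YSGr female 11, where 7.27% of all genes were called, and 10 (22.7%) with library weights, where 12.9% were. The median of 0.43 was 0.27 without YSGr male 8 and 0.30 without YSGr female 12.

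The YSGr libraries differed among themselves more than the sexes alone describe. Counting members below all 6 SG libraries gave 31, 38 and 36 of 44 for YSGr males 7, 8 and 9, and 13, 33 and 2 for YSGr females 10, 11 and 12. As shares these run from 4.55% (female 12) to 86.4% (male 8), and over all genes the same share ran from 21.0% to 32.8%. By this count YSGr female 11 was among the males, while YSGr female 12 was near 0. YSGr male 8 was the lowest of all 12 libraries for 35 members, YSGr female 11 for 5, and YSGr male 9 and SG male 2 for 2 each.

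Summed markers of other cells were also unequal between these libraries. The summed level of 12 listed markers of differentiating granule neurons, the postmitotic descendants of the progenitors, some of them shared by other neurons, was 841 to 1052 CPM in the SG libraries against 2068, 2070 and 2076 CPM for YSGr males 7, 8 and 9. In the YSGr females it was 951, 2281 and 872 CPM for libraries 10, 11 and 12, so the 4 libraries with 31 or more members below SG were the 4 with sums of 2068 CPM or more. The sums were not made up alike. The cerebellar granule genes Cbln3 and Gabra6 stood at 5.11 to 6.07 and 4.23 to 5.24 log2 CPM in SG. In YSGr males 7 and 9 and YSGr female 11 they were higher, at 8.55, 8.21 and 7.97 for Cbln3 and 6.96, 6.81 and 6.76 for Gabra6. In YSGr male 8, the library lowest for most members, both lay within the SG range (5.90 and 4.86), and Cbln1, another granule gene, lay below it (7.39, SG 7.68 to 8.22). Its sum came largely from genes of neurons in general, such as Snap25 (9.53, SG 6.72 to 7.43), Vsnl1 (7.91, SG 3.84 to 4.36) and Syt1 (7.79, SG 4.77 to 5.73). Of the same list, Grin2c (4.75, SG 3.87 to 4.51) and Kcnd2 (5.86, SG 4.37 to 5.52) were also above SG in YSGr male 8. In the average, 3 of these 12 markers rose and none fell. The proliferation marker Mki67 stood at 9.48, 9.00, 9.65, 9.64, 9.50 and 9.77 log2 CPM in the SG libraries. It stood at 9.19, 8.92 and 9.20 in YSGr males and 9.59, 8.55 and 9.51 in their females, lowest in the same female 11. By limma, Mki67 was not called (-0.35 averaged over the sexes, adjusted p = 0.21). Its fold change was -0.28 in males and -0.42 in females, a sex order unlike that of the replication gene medians. Macrophage and microglia markers summed to 563 to 799 CPM in SG and 929 to 1455 in YSGr, with 5 of 12 higher, and all 5 tested neutrophil markers were higher (4 of the 10 listed, Ly6g, Ngp, Camp and Elane, were not in the table), at 10.6 to 14.8 CPM in SG and 16.6 to 38.8 in YSGr. These 2 sums were raised in all 6 YSGr libraries, including females 10 and 12. Of the 12 progenitor markers 6 fell and 1 rose, with sums of 4212 to 6110 CPM in YSGr males, 6271 to 7156 in YSGr females and 5916 to 6305 in SG. Of the 8 oligodendrocyte lineage markers 3 fell, although YSGr male 8 had the highest sum, and of the 8 endothelial markers 4 fell. For T and NK cells and for erythroid cells, 1 and 5 listed markers were tested and 0 were called. Over all genes tested, 5.27% were called lower and 6.16% higher in the average. The part of any of these cells in the replication gene values was not tested.

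**Figure D4:**
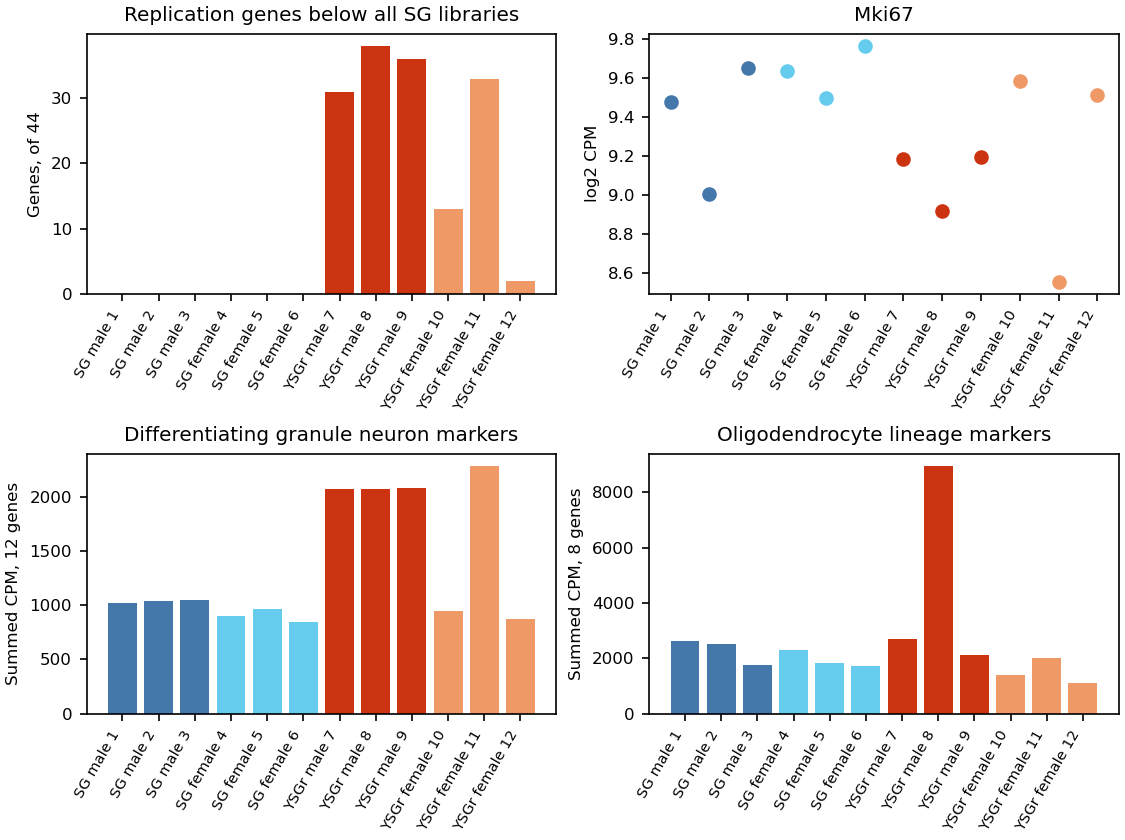
By library (x axis), the number of the 44 replication genes below all 6 SG libraries, Mki67 in log2 CPM (axis not starting at 0), and the summed CPM of differentiating granule neuron and of oligodendrocyte lineage markers (bars from 0). The 4 YSGr libraries with 31 or more replication genes below SG have granule neuron list sums of 2068 to 2281 CPM. In YSGr male 8 the granule genes Cbln1, Cbln3 and Gabra6 were not above SG, whereas Grin2c and Kcnd2 of the list were. General neuronal genes such as Snap25 made up much of its sum.

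In SG male 2 the replication genes deviated with their length. Relative to the SG mean, its median was 0.27 for the 22 members with shorter exons and -0.01 for the 22 with longer ones, and Spearman's rho between deviation and exon length was -0.59 across the 44 genes and -0.68 across 14061 genes with a length. In the other 11 libraries rho across the members was -0.44 (YSGr female 12) to 0.49 (SG female 6). Since the SG mean includes SG male 2, rho of the other SG libraries is pushed above 0 by construction. It was 0.21 to 0.49 in them. These are correlations across genes of 1 library and carry no p. Short genes such as Fen1, Gins1 and Rfc4 were high in SG male 2 and long genes such as Ticrr, Pole and Rfc1 were low. Other members went against length. Rfc2 (4995 bases of exon) and Rpa1 (5140) were highest in SG male 2 among the SG libraries, and Orc3 (2300) was lowest there. Male fold changes without SG male 2 were -0.51 for Fen1, -0.60 for Mcm7 and -0.66 for Mcm2, none called, and -0.60 for Gins2, which was called (adjusted p = 0.026).

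Of 67 further genes in 4 lists around replication, all tested, 10 fell and none rose in the average, with 59 below 0 and a median of -0.25. The lists were chosen with earlier results of these data known, so their counts are a description. The share called lower was 14.9%, against 5.27% of all genes. In males 5 fell (7.46%, against 3.42%), and in females 1 did (1.49%, against 1.87%). Among 25 further fork and checkpoint proteins, Chtf18, which loads PCNA in a variant clamp loader, fell the most: its libraries measured 5.78 to 6.32 log2 CPM in SG, 4.31 to 4.75 in the 3 males of YSGr, and 4.76 to 5.12 in its females, with no overlap between genotypes. Chtf18 fell by 1.20 averaged over the sexes (adjusted p = 0.00013), by 1.41 in males (adjusted p = 0.0017) and by 0.99 in females (adjusted p = 0.012). Rnaseh2a, a subunit of the RNase H2 enzyme that removes ribonucleotides from DNA, fell by 0.59 in the average and 1.03 in males, and Tipin, a fork protection factor, fell by 0.80 in males. Without SG female 4 or SG female 6 the female call of Chtf18 was lost (adjusted p up to 0.070). Of the 12 fits that left out 1 library, 11 kept the male call of Rnaseh2a, which was lost without YSGr male 8. The averaged call of Rnaseh2a was less stable, kept in 7 of the 12, and the male call of Tipin was kept in only 3. Leaving out YSGr male 8 was among the losses for both.

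The 3 other lists gave 8 of the 10 calls in the average. Of 11 deoxynucleotide synthesis genes, Cad, which starts pyrimidine synthesis, fell by 0.45 in the average (adjusted p = 0.015) and was the only call. Of 11 replication-coupled chromatin genes, 4 (36.4%) were called in the average: Chaf1a and Chaf1b of the CAF-1 histone chaperone, Uhrf1, which guides maintenance DNA methylation, and Supt16 of the FACT chaperone fell by 0.37, 0.63, 0.43 and 0.37 in the average. In males Chaf1b and Ssrp1, the other FACT subunit, fell by 1.00 and 0.61. Of 20 G1/S regulators, 3 (15%) were called in the average: Cdk2, a kinase of S-phase entry, and E2f5 and E2f4, E2F members known mainly as repressors, fell by 0.45, 0.40 and 0.35 in the average and none was called in either sex. E2f1, an activator of S-phase genes, was at -0.20 (adjusted p = 0.22), Ccne1 at -0.26 and Rb1, the E2F inhibitor, at 0.00. Chtf18 and Cad stayed called in the average in all 12 fits that left out 1 library, while each of the chromatin and G1/S calls was lost for 5 or more of the 12, among them YSGr male 8.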

How the data were processed

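Per the labels' protocols, tumour RNA of 12 samples was read on a BGISEQ-500, and the authors deposited log2 CPM values. The submitters' processing notes name Trimmomatic 0.33, RSEM 1.2.12, Bowtie2, Picard 1.95, edgeR 3.30.3 and the build mm10. The annotation, strand setting, prior count, filters and any batch were not given in the sources used here. Estimated reads were derived from the steps between low values (91.3% to 94.3% of them whole within 0.05 reads).

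Genes above 0 log2 CPM in at least 3 of the 12 libraries entered a limma 3.58.1 fit (R 4.3.3) with 1 coefficient per sex and genotype, a mean-variance trend, two-sided tests, Benjamini-Hochberg adjustment over 14147 genes and a threshold of 0.05. Fold changes are on the deposited log2 scale, which understates changes of low genes. The fit was tested on simulated data.

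Groups came from the genotype and sex labels. Named were members called in any contrast, the smallest p per role, the 3 extremes of fold change and of level per kb, the 5 smallest p for the sex difference, and called genes of the 4 further lists. Mcm3, Mcm4, Gins1, Gins3, Pola1, Pola2, Pold1, Rfc4 and Rrm1, outside that rule, were named after their values were seen, as were E2f1, Ccne1, Rb1 and the genes sharing exons with members. Members and lists were chosen with earlier results of these data known. Alternatives changed the filter, the prior count, the scaling, the trend, library weights, the libraries sharing the spread and single libraries; leaving out SG male 2 and YSGr male 8 together was added after seeing the data. Exon lengths, overlaps and coordinates are from GENCODE M21 (mm10), and promoters from RefSeq GRCm38.p6. No paired analysis was made, as the library numbers are not shared between groups.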

Additional observations from a re-analysis of the deposited data

Results flagged for a closer look

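Each of the 44 replication genes, their mean, Yap1 and Mki67 were examined for a library far from the other 5 of its genotype. Of the 94 sets tested, 14 had a gap above Dixon's 95% critical value for 6 libraries, and chance alone flags about 1 in 20 sets. For 12 of the 14 the distant library was SG male 2. It was the highest SG library for Orc5 (5.44 log2 CPM), Orc6 (5.26), Gins4 (5.54), Prim1 (6.16), Rfc2 (7.19) and Rfc5 (6.67). It was the lowest SG library for Mcm4 (6.77), Orc3 (5.55), Ticrr (4.92), Pola1 (4.89), Rfc1 (6.37) and Rrm1 (7.63). The remaining 2 were YSGr male 8, lowest among the YSGr libraries for the helicase loader Cdc6 (3.97) and for Mcm10 (4.75). The cause was not tested.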

How the results depend on the processing

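No called fold change reversed under any alternative run. In the average, 5 members were called lower. This became 24 with library weights (54.5%, against 17.9% of all genes) and 2 with genotype only (4.55%, against 4.27%). Over single libraries left out it ran from 1 (2.27%, against 2.89%) to 10 (22.7%, against 6.30%). In males 7 became 15 with library weights (34.1%, against 7.26%) and 2 without the mean-variance trend (4.55%, against 2.06%). It was 0 with male libraries only (against 0.530%) and 2 with SG male 2 and YSGr male 8 left out together (4.55%, against 0.749%). Over single libraries the male count ran from 1 to 12. It was 1 (2.27%) without SG male 2 (against 1.11%) or YSGr male 8 (against 0.848%), and 12 (27.3%, against 4.73%) without YSGr female 11. In females 0 became 8 with library weights (18.2%, against 16.0%) and 1 with quantile normalization (2.27%, against 1.82%). It was 1 with female libraries only (2.27%, against 3.06%) and 2 with both libraries left out together (4.55%, against 5.03%). Over single libraries it was 0 to 1 (1, Gins2, without SG male 2, 2.27% against 3.20%). The sex difference called 0 members and 2 with library weights (4.55%, against 4.77%). Female against male in YSGr called 0, 10 with library weights (22.7%, against 12.9%), and 0 to 6 over single libraries (6 without YSGr female 11, 13.6% against 7.27%). Median fold changes ranged from -0.37 to -0.21 (average), -0.23 to 0.00 (females) and -0.64 to -0.37 (males) over single libraries, and the male median was -0.26 with both left out. Gins2 in the average passed in all 21 alternatives, Mcm2 in 19, Pole in 18, Lig1 in 17 and Fen1 in 11. Fewer libraries lower the power by construction; other causes were not tested. Depth limits the members little, since the fewest reads were 49.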
